A study of Mus musculus with 17 samples.

Results

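The integrated stress response and the unfolded protein response were followed through 38 genes, chosen by symbol, among the 25899 gene symbols of a count table of newly made RNA from mouse embryonic stem cells. All 38 were found, and 37 passed the filter on low counts and were tested. The gene left out was Nupr1, a small stress-induced chromatin protein gene with 0 to 11 counts per library. The members were read in 5 sets: 4 sensors, 6 transcriptional regulators, 2 phosphatase subunits, 10 genes of the arm driven by ATF4 and 16 genes of the endoplasmic reticulum (ER) chaperone arm.

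The cells were of the E14tg2a line on a 129SV background. In every group, controls included, Erk1 and Erk2 were knocked out and the cells lived on FLAG-ERK2 Q103A made from a cDNA, a form of ERK2 that the compound PP1 can block. All cells also carried cRAF-ErT2, a RAF kinase that 4-hydroxytamoxifen (4OHT) activates, and all had spent 24 h in serum medium with LIF and the FGF receptor inhibitor PD173074 at 250 nM. The 6 groups were DMSO without 4OHT (n = 2, clones b and c), 250 nM 4OHT for 2 h in DMSO, a MEK inhibitor at 1 µM (MEKi) alone, MEKi with 4OHT, PP1 at 2 µM alone, and PP1 combined with 4OHT. Each of the last 5 had 3 libraries, 1 per clone (a, b and c). The time spent with an inhibitor alone is not clear from the labels and was taken as unknown. RNA made during the final 15 minutes was tagged with 5 mM ethynyl uridine and pulled out by click chemistry, so values reflect RNA being made more than the stock of mRNA. The replicates are clones of 1 line, and p-values measure the spread between them only.

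Protein synthesis is slowed when kinases such as PERK (gene Eif2ak3) and GCN2 (Eif2ak4) phosphorylate the initiation factor eIF2. ATF4 is then translated more efficiently and switches on genes for amino acid supply, redox balance and, with CHOP (Ddit3), cell death. Unfolded proteins in the ER also activate IRE1 (Ern1), which splices Xbp1 mRNA, and ATF6, and these raise chaperones such as BiP (Hspa5). Splicing, translation and phosphorylation are not seen in counts of newly made RNA per gene.

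The arms differ in the known elements of their promoters, which is why these sites are shown. Promoter windows from RefSeq (GRCm38.p6, 250 bases before to 50 after the start) matched 34 of 38 members. The ER stress element, read by ATF6 with NF-Y, was searched as CCAAT, 9 bases of any kind and CCACG, on both strands. It was present in 7 of 14 matched ER chaperone arm genes and in none of the 10 ATF4 arm genes or 6 regulators, against 39 of 32851 promoters (0.119%). Capitals mark the fixed letters of the element.
Hspa5, chr2:34772020-34772048, plus strand: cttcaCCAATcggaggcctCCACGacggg
Hsp90b1, chr10:86705633-86705661, minus strand: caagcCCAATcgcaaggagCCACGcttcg
Hsp90b1, chr10:86705528-86705556, plus strand: actcaCCAATcgtgcctcaCCACGcactc
Calr, chr8:84847070-84847098, plus strand: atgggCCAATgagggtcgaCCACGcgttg
Pdia6, chr12:17266486-17266514, plus strand: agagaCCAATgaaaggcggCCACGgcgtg
Creld2, chr15:88819515-88819543, minus strand: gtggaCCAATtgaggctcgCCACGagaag
Dnajc3, chr14:118937822-118937850, plus strand: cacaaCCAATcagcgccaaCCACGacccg
Syvn1, chr19:6046527-6046555, plus strand: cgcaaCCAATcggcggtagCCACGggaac
The ATF4 element was searched as TGATGNAA on both strands, and 3.97% of all promoters held it. It was present in 3 of 10 ATF4 arm genes (Asns, Chac1 and Trib3), in 1 of 6 regulators (Nupr1) and in 1 of 14 ER chaperone arm genes (Herpud1). Capitals again mark its fixed letters.
Asns, chr6:7693220-7693237, minus strand: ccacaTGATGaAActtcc
Chac1, chr2:119351044-119351061, minus strand: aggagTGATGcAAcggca
Nupr1, chr7:126625568-126625585, plus strand: ctgtcTGATGcAAtctgg
Herpud1, chr8:94386312-94386329, minus strand: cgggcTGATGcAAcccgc
Its stricter form TTGCATCA, the same site read on the other strand with the open base fixed, was present in Chac1, Herpud1 and Nupr1 and in 0.895% of all promoters. The unfolded protein response element TGACGTGG was in 0 of 34 members and in 0.676% of all promoters. A letter match is a description and not a bound site.

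**Figure D1:**
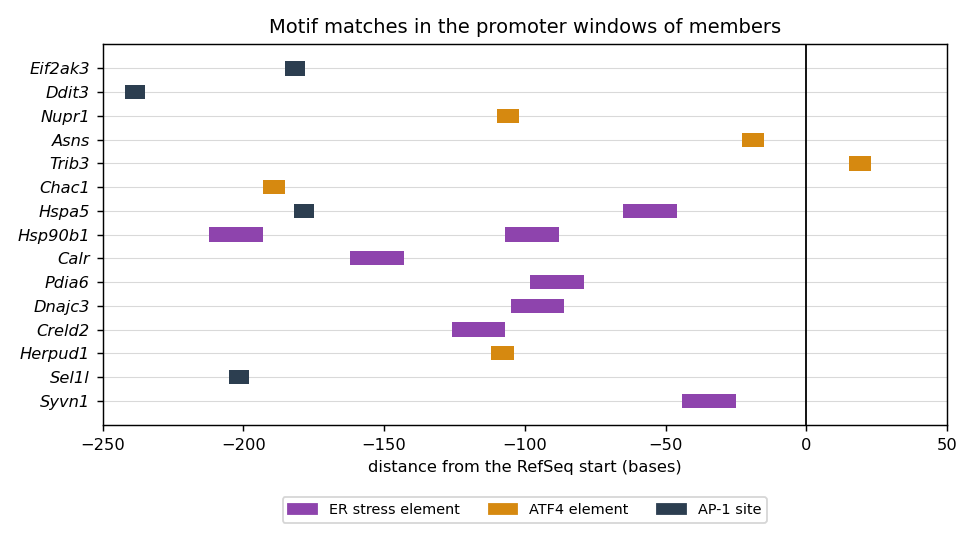
Positions of ER stress elements, ATF4 elements and AP-1 sites in the loose form TGANTCA in the promoter windows of the members that hold one, in bases from the RefSeq start (horizontal axis), with 1 row per gene. ER stress elements appear in 7 ER chaperone arm genes only, of which Hsp90b1 has 2.

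Library totals ran from 5239690 to 11093390 counts, so that 3 counts stood for 0.247 to 0.766 CPM (a count as a share of its library's TMM-scaled total). The targeted genes could not check the knockout, since a symbol's count need not come from the deleted part: Mapk3 (Erk1) held 7.6 to 17.9 CPM in every library. Dusp6, an ERK target used to check 4OHT, was 70.6 and 83.4 CPM in DMSO and 265 to 293 CPM in 4OHT. In MEKi it was 20.4 to 31.1 CPM, and 5.2 to 5.89 CPM once 4OHT was added (log2 -2.12). In PP1 it was 47.7 to 50.3 CPM, and 149 to 162 CPM once 4OHT was added. Dusp6 thus still rose with 4OHT in PP1 (log2 1.66, adjusted p = 4.82e-11 by edgeR), beside 1.85 without inhibitor. The difference between these effects was not called (log2 -0.19, adjusted p = 0.375 by edgeR). All 10 embryonic stem cell markers were detected, with a summed level of 2967 to 3993 CPM, and the summed levels of fibroblast, primitive endoderm, trophoblast, neural and 2-cell-like markers each reached at most 52.9 CPM in any library. Of the 10 stem cell markers 1 rose and 3 fell with 4OHT against DMSO, where 25.7% of all genes rose and 26.3% fell. Of 6 tested primitive endoderm markers 0 rose and 2 fell. Of 5 tested trophoblast markers 1 rose and 1 fell, with log2 values from -1.08 to 6.79. Of 2 tested fibroblast markers 1 fell, as did 1 of 2 tested neural markers, and the 1 tested 2-cell-like marker was not called. Tubb3 (neural) and Tcstv1 (2-cell-like) were at 0 throughout. A group of 14 loci with high counts took 9.38% to 42% of a library, most in PP1 clone a. Each had a mean of at least 1000 counts and a share of the library that followed that of Cdk8 (r of at least 0.95).

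4OHT alone was accompanied by a rise of all 5 tested regulators, calls in both directions in the ATF4 arm and few calls in the ER chaperone arm. Against DMSO, 13 of the 37 members rose and 4 fell (edgeR quasi-likelihood test, Benjamini-Hochberg adjusted p under 0.05 over 14907 genes), where 25.7% of all genes rose and 26.3% fell, 52% in all. The median log2 fold change of the members was 0.28, against -0.02 over all genes. The members' share of calls, 17 of 37, was thus no higher than that of all genes, and 5 of 5 regulators rose, with a median of 1.40. Scaled by library totals only, which shifts the median gene to -0.32, the balance turned: 4 members rose and 9 fell, their median was -0.04, and 21.1% of all calls were rises, against 49.4% with TMM. The members' median was 0.15 without 4OHT clone b and 0.14 without the 3 libraries in which the high-count loci took most of their group. Over all genes, the DMSO and 4OHT libraries did not overlap for 66.5%, so a lack of overlap between groups this small is common.

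Ddit3, which encodes the pro-apoptotic factor CHOP, was 6.5 and 7.04 CPM in the DMSO libraries and 41.9, 55.0 and 68.0 CPM in the 4OHT libraries. With MEKi it was 5.55, 7.52 and 7.57 CPM, and 7.5, 8.88 and 11.6 CPM once 4OHT was added. With PP1 it was 5.87, 5.77 and 8.7 CPM, and 11.8, 10.6 and 12.4 CPM once 4OHT was added. Every 4OHT library stood above all 14 others. The rise over DMSO was 8.1-fold (log2 3.02 ± 0.22, approximate SE; adjusted p = 6.51e-11 by edgeR), and it kept its call under all 16 alternatives tried. Ddit3 lies on chromosome 10 (chr10:127290774-127296288, plus strand, mm10) and overlaps Mars and Gm4189 on the minus strand. Since the strand setting of the counting is not known, its reads cannot be told apart from theirs. The same holds for Cebpb (Tmem189), Ppp1r15a (Tulp2), Shmt2 (Ndufa4l2) and Pdia6 (Atp6v1c2), and for Cebpg, Sesn2, Psat1, Hsp90b1 and Herpud1, which overlap noncoding genes or pseudogenes. Mars, counted under its own symbol, was 35.1 CPM in DMSO and 53.1 CPM in 4OHT (log2 0.59, adjusted p = 0.0198 by edgeR), a smaller change than that of Ddit3. Because Ddit3 moved most, its upstream sequence is given from 250 to 20 bases before the start. Capitals mark the letters of a match to TGANTCA, a loose form of the AP-1 site with any base in the middle. This motif was added after the values were seen, and it was present in 4 of 34 members (Ddit3, Eif2ak3, Hspa5 and Sel1l) and in 7.81% of all promoters. The match read TGACTCA in Ddit3, TGAGTCA in Hspa5 and TGATTCA in Eif2ak3 and Sel1l. Its part in the levels was not tested.
Ddit3, chr10:127290543-127290773, plus strand: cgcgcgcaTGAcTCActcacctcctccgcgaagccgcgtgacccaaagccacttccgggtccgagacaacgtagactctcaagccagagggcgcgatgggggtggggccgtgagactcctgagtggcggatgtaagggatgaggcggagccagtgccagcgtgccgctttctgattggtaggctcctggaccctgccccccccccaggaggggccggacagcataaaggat

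Atf5, a sister factor of Atf4, was 4.36 and 5.28 CPM in DMSO and 11.4, 15.0 and 12.1 CPM in 4OHT. All 3 values lay above every library of the other groups, whose highest was 7.94 CPM in PP1 with 4OHT, clone c. The rise was 2.64-fold (log2 1.40 ± 0.21, adjusted p = 6.01e-06 by edgeR). Atf5 overlaps Nup62, which has 0 counts in every library, and Il4i1, so its level is uncertain.

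Atf4 itself was 73.5 and 102 CPM in DMSO and 130, 149 and 157 CPM in 4OHT. The 2 groups did not overlap, and the highest library outside 4OHT was PP1 with 4OHT clone c at 127 CPM. The rise was 1.66-fold (log2 0.73 ± 0.15, adjusted p = 0.000588 by edgeR). It was no longer called when scaled by library totals only. Cebpg, a partner of ATF4, was 31.4 and 32.1 CPM in DMSO and 42.3, 42.1 and 46.4 CPM in 4OHT, 1.37-fold higher without overlap. Its call also ended with library totals as the scaling (log2 0.16, adjusted p = 0.528 by edgeR). It ended too with the high-count loci left out as well (log2 0.21, adjusted p = 0.0948 by edgeR).

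Cebpb, a leucine zipper factor that pairs with CHOP and ATF4, sat near the limit of counting. It was 0.0823 and 0.741 CPM in DMSO and 1.39, 3.1 and 2.11 CPM in 4OHT. The fitted rise (log2 2.38 ± 0.69, adjusted p = 0.00548 by edgeR) rests on DMSO clone b, without which the adjusted p was 0.122.

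**Figure D2:**
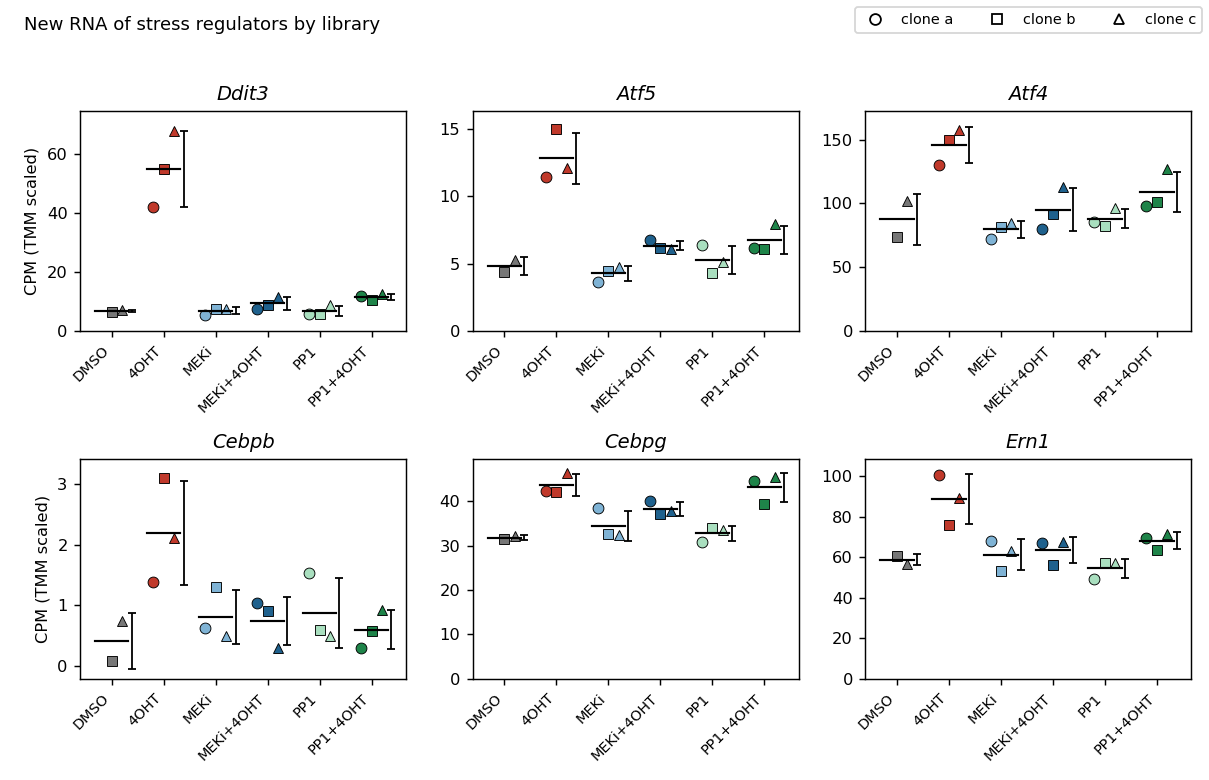
New RNA of 5 regulators and of the sensor Ern1 in CPM (vertical axis, each gene on its own scale) for the 17 libraries in 6 groups, with marker shape for the clone, a line for the group mean and a bar for the SD. The 3 libraries of 4OHT alone lie above the 2 DMSO libraries for every gene shown.

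Among the sensors, 2 of 4 rose with 4OHT, where 25.7% of all genes rose. Ern1, the IRE1 gene, was 60.9 and 56.9 CPM in DMSO and 101, 76.0 and 89.2 CPM in 4OHT, 1.51-fold higher (adjusted p = 0.000162 by edgeR). Atf6 was 236 and 215 CPM in DMSO and 302, 258 and 287 CPM in 4OHT, 1.25-fold higher (adjusted p = 0.00246 by edgeR). For both genes the groups were apart, and both calls ended with library totals as the scaling. Eif2ak3 (log2 -0.08) and Eif2ak4 (0.10) did not pass the test.

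Of the 2 phosphatase subunit genes, whose products bring phosphatase to eIF2, Ppp1r15b rose. It was 79.2 and 103 CPM in DMSO and 120, 158 and 152 CPM in 4OHT (log2 0.65 ± 0.14, adjusted p = 0.000571 by edgeR), without overlap. Ppp1r15a, the stress-inducible GADD34 gene, was 13.1 and 18.0 CPM against 16, 23.3 and 24.1 CPM, and was not called (log2 0.44).

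The ATF4 arm held calls in both directions, as did all genes. Of its 10 genes, 3 rose and 2 fell with 4OHT, where 25.7% of all genes rose and 26.3% fell. Its median log2 was 0.34. Sesn2, which restrains mTORC1 when amino acids are short, was 133 and 142 CPM in DMSO and 210, 231 and 234 CPM in 4OHT. Psat1, of serine synthesis, was 33.0 and 32.2 CPM in DMSO and 47.9, 58.1 and 47.9 CPM in 4OHT. Mthfd2, of mitochondrial folate metabolism, was 16.3 and 17.7 CPM in DMSO and 19.1, 24.3 and 24.6 CPM in 4OHT. None of the 3 overlapped, and the rises were 1.64-, 1.56- and 1.33-fold (adjusted p = 1.12e-06, 0.000874 and 0.025 by edgeR). The call of Mthfd2 ended when DMSO clone b, 4OHT clone b or 4OHT clone c was left out. Asns, the asparagine synthetase gene and a standard ATF4 target, went the other way. It was 168 and 202 CPM in DMSO and 87.7, 91.5 and 103 CPM in 4OHT, with no overlap, a fall to 0.509 of the DMSO level (log2 -0.97 ± 0.15, adjusted p = 2.1e-05 by edgeR) that was called under all 16 alternatives. Ddit4, the mTORC1 inhibitor REDD1, was 13.0 and 15.6 CPM in DMSO and 7.15, 13.4 and 9.49 CPM in 4OHT. Its groups overlapped, and the fall (log2 -0.55, adjusted p = 0.0268 by edgeR) was not called without DMSO clone c, 4OHT clone a or 4OHT clone c. The rest did not pass the test: Chac1 (log2 0.85, at most 2.11 CPM in any library), Shmt2 (0.46), Stc2 (0.28), Phgdh (-0.18) and Trib3 (-0.35), the last a pseudokinase that CHOP and ATF4 induce. With clone as a replicate block, Stc2 was called (log2 0.35, adjusted p = 0.00863 by edgeR).

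**Figure D3:**
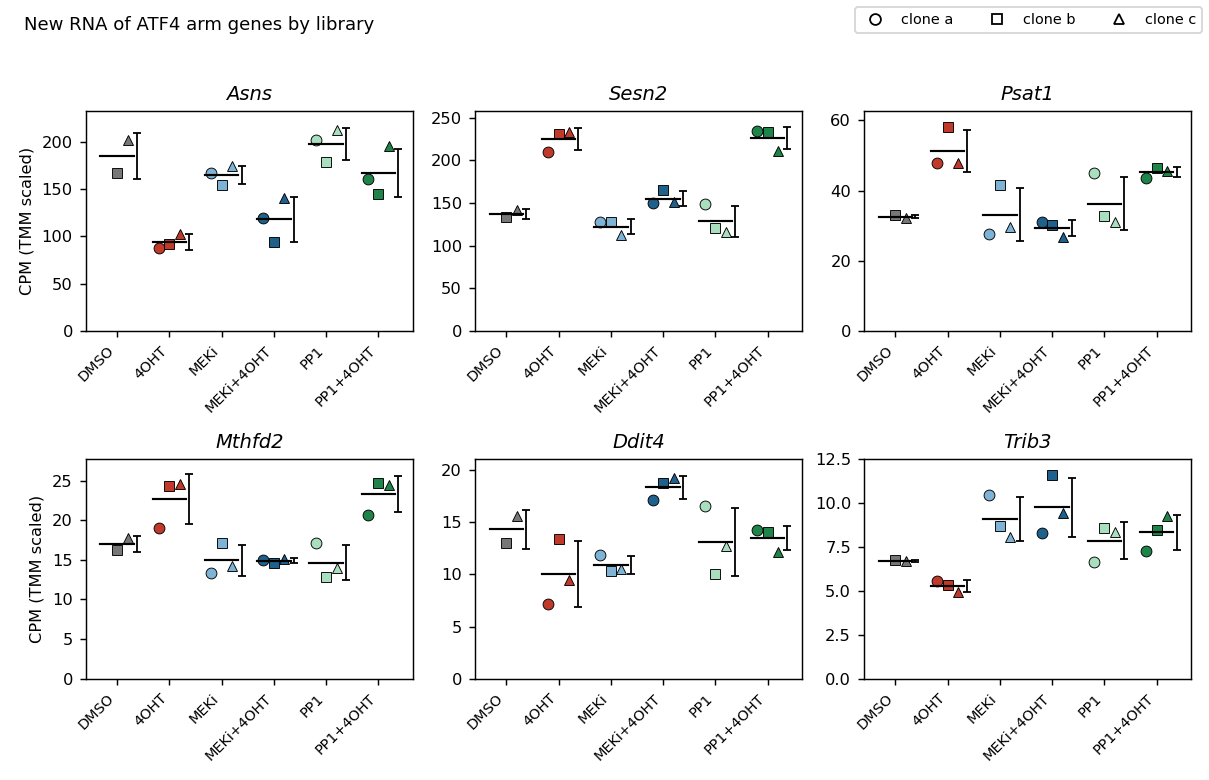
New RNA of 6 ATF4 arm genes in CPM (vertical axis, each gene on its own scale) for the 17 libraries in 6 groups, with marker shape for the clone, a line for the group mean and a bar for the SD. Asns is lowest in 4OHT alone (87.7 to 103 CPM), while Sesn2 is at 210 CPM or above both in 4OHT alone and in PP1 with 4OHT.

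The ER chaperone arm as a set stayed near the median of all genes. With 4OHT, 2 of 16 rose and 2 fell, with a median log2 of 0.02, where 25.7% of all genes rose and 26.3% fell. Scaled by library totals only, 0 rose and 6 fell, Hsp90b1, Pdia4, Pdia6 and Sdf2l1 joining the falls. The TMM-scaled rises were in Dnajb9, a co-chaperone of BiP and a known XBP1 target, and in Syvn1, the ligase of ER-associated degradation. Dnajb9 was 39.7 and 40.2 CPM in DMSO and 60.6, 49.6 and 59.7 CPM in 4OHT (log2 0.51 ± 0.11, adjusted p = 0.000429 by edgeR), and no library of the other groups exceeded 40.2 CPM. Syvn1 was 30.0 and 35.3 CPM in DMSO and 38.7, 45.7 and 44.4 CPM in 4OHT (log2 0.39 ± 0.11, adjusted p = 0.00339 by edgeR). Syvn1 overlaps Mrpl49, so its level is uncertain, and its call ended without DMSO clone b. Dnajc3, the co-chaperone P58IPK, was 58.3 and 52.0 CPM in DMSO and 32, 38.4 and 30.2 CPM in 4OHT. It was lower in 4OHT than in any of the 14 other libraries (log2 -0.73 ± 0.11, adjusted p = 8.93e-06 by edgeR). The part of the ER stress element in its promoter was not tested. Manf, a secreted ER stress protein, was 32.6 and 41.1 CPM against 20.1, 34.0 and 26.0 CPM, with overlapping groups (log2 -0.49, adjusted p = 0.0368 by edgeR), and its call ended without DMSO clone c, 4OHT clone a or 4OHT clone c. Manf overlaps Dcaf1 (65.4 CPM in DMSO and 72.7 CPM in 4OHT) and Rbm15b, so its level is uncertain. In the fit with clone as a replicate block Manf was not called either (adjusted p = 0.0588 by edgeR).

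The lumenal chaperones Hspa5 and Hsp90b1 did not pass the test with 4OHT. Hspa5 (BiP) was 115 and 128 CPM in DMSO and 115, 182 and 137 CPM in 4OHT. Hsp90b1 (GRP94) was 285 and 304 CPM in DMSO and 214, 340 and 290 CPM in 4OHT. Their 4OHT libraries lay on both sides of DMSO. The same library was the highest for many of these genes at once: 4OHT clone b for 14 of the 16 ER chaperone arm genes, MEKi clone b for 10 and PP1 clone a for 12, against 33.8%, 32.3% and 35.3% of all genes tested. These are the libraries of their groups in which the 14 high-count loci took most, 28.9%, 32.6% and 42%. Their part in the levels was not tested, and without these 3 libraries 2 ER chaperone arm genes rose and 3 fell with 4OHT. Xbp1 mRNA was also not called (30.3 and 31.8 CPM in DMSO, 34.2, 39.6 and 34.3 CPM in 4OHT, log2 0.21). With the replicate block it was called (0.30, adjusted p = 0.0278 by edgeR).

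**Figure D4:**
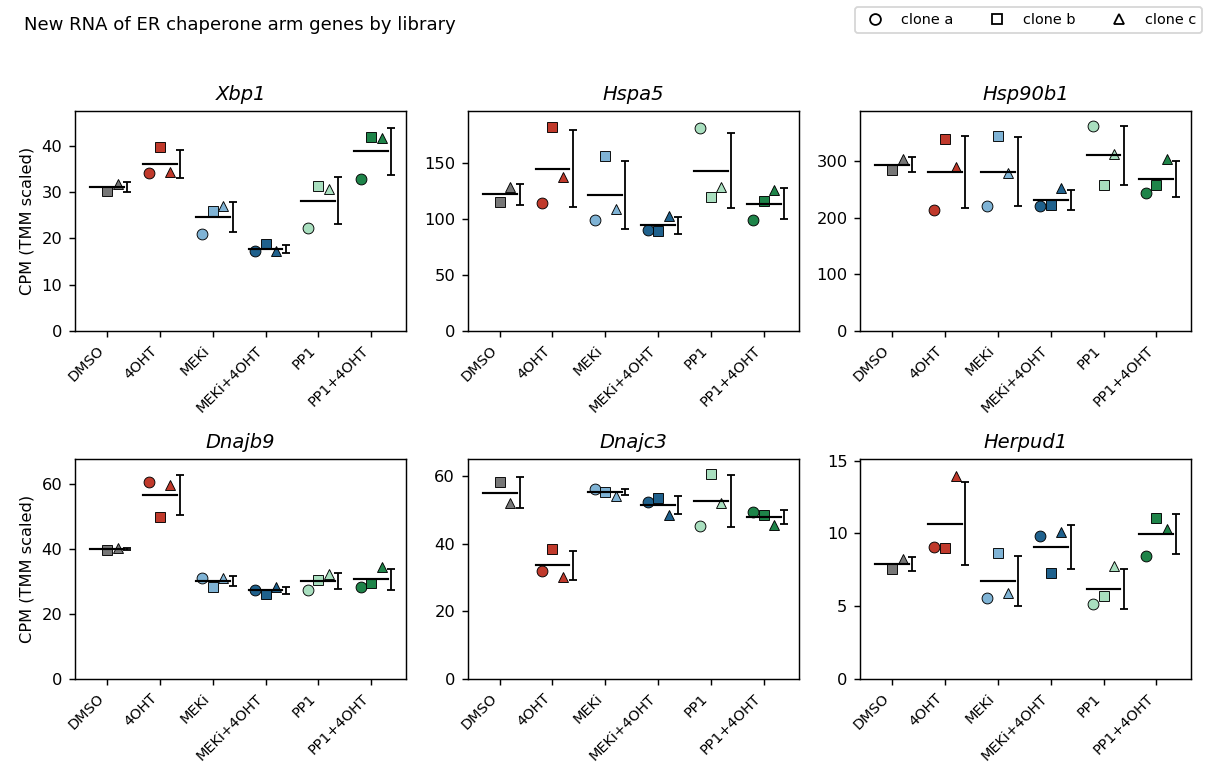
New RNA of 6 ER chaperone arm genes in CPM (vertical axis, each gene on its own scale) for the 17 libraries in 6 groups, with marker shape for the clone, a line for the group mean and a bar for the SD. Dnajb9 is highest and Dnajc3 lowest in 4OHT alone, and Hspa5 and Hsp90b1 spread widely within 4OHT, MEKi and PP1.

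Other genes of the same pathways were read from wider lists. Of 37 tested of 40 further ATF4 pathway genes, 14 rose and 6 fell with 4OHT (median log2 0.15), where 25.7% of all genes rose and 26.3% fell. Eif4ebp1, a brake on cap-dependent translation, rose from 208 to 512 CPM (log2 1.30), and Slc38a2, an amino acid transporter gene, also rose (1.17). Cth, of cysteine synthesis, fell from 138 to 57.0 CPM (log2 -1.27), and Gpt2, an alanine transaminase gene, fell (-1.43). Of 49 tested of 50 further unfolded protein response genes, 19 rose and 7 fell (median 0.19). Sec23b, of the COPII coat, rose by 0.89 on the log2 scale. Sil1, an exchange factor of BiP, and Creb3l2, an ER membrane factor, fell (log2 -1.68 and -2.04).

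No member was called with either inhibitor in the absence of 4OHT. Of 37 members, 0 were called in MEKi against DMSO, in PP1 against DMSO and in PP1 against MEKi, both by edgeR and by DESeq2. Of all genes, 0.53% were called in the first (0.0805% higher and 0.449% lower), 0.241% in the second (0.0805% higher and 0.161% lower) and 0.0738% in the third, all higher. At an unadjusted p under 0.05 there were 3, 3 and 0 members. The 95% intervals lay within ±1 on the log2 scale for 35, 34 and 35 members. The wider ones were those of Cebpb and Chac1, both of few counts, and of Calr in PP1 against DMSO. Dnajb9 was lower in all 6 inhibitor libraries (27.3 to 32.4 CPM) than in DMSO (39.7 and 40.2 CPM), with log2 -0.40 in each, and this did not pass the adjusted threshold.

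With MEKi present, 4OHT was accompanied by fewer calls: 3 of 37 members rose and 2 fell, where 7.65% of all genes rose and 7.03% fell, 14.7% in all. Scaled by library totals only, 3 rose and 0 fell, and 82.9% of all calls were rises, against 52.1% with TMM. None of the 5 regulators was called, Ddit3 being at log2 0.43, Atf4 at 0.25 and Atf5 at 0.56. With the replicate block Atf4 (0.25, adjusted p = 0.0326 by edgeR) and Stc2 (0.29, adjusted p = 0.0353 by edgeR) were called as well. The largest rise was that of Ddit4, from 11.9, 10.3 and 10.5 CPM to 17.1, 18.8 and 19.2 CPM (log2 0.75 ± 0.18, adjusted p = 0.00639 by edgeR), with no overlap. It was the 1 member call of this comparison that held under all 17 alternatives. Sesn2 rose from 127, 127 and 112 CPM to 150, 165 and 151 CPM (log2 0.35). Eif2ak3, the PERK gene, rose from 67.4, 61.7 and 68.8 CPM to 83.3, 79.3 and 80.5 CPM (log2 0.29), but its call ended when any 1 of the 6 libraries was left out. Asns fell from 167, 155 and 174 CPM to 119, 94.0 and 141 CPM (log2 -0.49), and Xbp1 from 20.9, 25.8 and 27.1 CPM to 17.2, 18.8 and 17.2 CPM (-0.48). Both sets of libraries were apart, as for 31.9% of all genes, and the call of Asns ended without MEKi clone a or c or MEKi with 4OHT clone b, and that of Xbp1 without MEKi clone c or MEKi with 4OHT clone a or c. Sesn2 was not called without MEKi clone c or MEKi with 4OHT clone b. MEKi clone a and MEKi with 4OHT clone b had the highest background of all libraries (11.3 and 8.45 CPM per Mb), and without both 2 members were called. Of the further genes, 3 of 37 in the ATF4 pathway rose and 2 fell, and 3 of 49 unfolded protein response genes rose, Wfs1 most (log2 0.84), and 1 fell (Sil1, -0.41).

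With PP1 present, 12 of 37 members rose with 4OHT and 1 fell, where 18.4% of all genes rose and 12.8% fell, 31.3% in all. The members' median log2 was 0.12, and 0.22 without PP1 clone a. With library totals as the scaling, 11 rose and 0 fell, and 76.6% of all calls were rises, against 59% with TMM. Sesn2 rose from 149, 120 and 116 CPM to 235, 233 and 211 CPM (log2 0.83 ± 0.09, adjusted p = 2.14e-07 by edgeR), next to 210 to 234 CPM in 4OHT alone. Stc2, a secreted glycoprotein gene induced by ATF4, rose from 32.2, 45.2 and 44.8 CPM to 66.4, 64.2 and 62.4 CPM (log2 0.63 ± 0.12, adjusted p = 0.000304 by edgeR). Mthfd2 rose from 17.1, 12.8 and 14.0 CPM to 20.7, 24.7 and 24.5 CPM (log2 0.70 ± 0.14, adjusted p = 0.000605 by edgeR). In each of these the PP1 libraries lay wholly below those with 4OHT, and 44.5% of all genes did not overlap either. Together with Cebpg (log2 0.39) they were the 4 calls that held under all 17 alternatives. Ddit3 rose by 0.75 on the log2 scale, to 10.6 to 12.4 CPM, which is short of the lowest library of 4OHT alone at 41.9 CPM, and its call ended without PP1 clone b. The replicate block added Atf4 (log2 0.31), Psat1 (0.36) and Asns (-0.25), with adjusted p = 0.00471, 0.0293 and 0.0124 by edgeR.

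Of the 16 ER chaperone arm genes, 4 rose and 1 fell with 4OHT in PP1, where 18.4% of all genes rose and 12.8% fell. Xbp1 rose from 22.2, 31.3 and 30.8 CPM to 32.9, 41.9 and 41.6 CPM (log2 0.43), and Herpud1, of ER-associated degradation, from 5.11, 5.67 and 7.72 CPM to 8.43, 11.1 and 10.3 CPM (0.66). Edem1, a lectin of the same process, rose by 0.34 and Syvn1 by 0.37, the latter beside its overlapping neighbour Mrpl49 (0.46, adjusted p = 0.00961 by edgeR). The lumenal disulfide isomerase gene Pdia4 fell (-0.30), from 111, 86.0 and 82.1 CPM to 74.3, 74.5 and 75.1 CPM. Among the other calls were the sensors Ern1 and Eif2ak3 (both 0.31) and Ppp1r15b (0.45). Left out 1 at a time, each of the 6 libraries ended the call of Ern1. Without PP1 clone a the calls of Eif2ak3, Xbp1, Pdia4 and Herpud1 ended, without PP1 clone b those of Ppp1r15b, Herpud1 and Edem1, and without PP1 clone c that of Edem1. Without PP1 with 4OHT clone a the calls of Eif2ak3 and Pdia4 ended, without its clone b those of Eif2ak3, Xbp1, Pdia4, Herpud1, Edem1 and Syvn1, and without its clone c those of Ppp1r15b, Xbp1, Pdia4, Herpud1 and Edem1. Of the further genes, 11 of 37 in the ATF4 pathway rose and 4 fell, with the synthetase genes Sars (0.65) and Cars (0.60) among the rises. Of 49 further unfolded protein response genes, 21 rose and 3 fell, with the cargo receptor gene Tmed2 (0.78) the first by p. Both lists stand beside the same 18.4% and 12.8% of all genes.

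**Figure D5:**
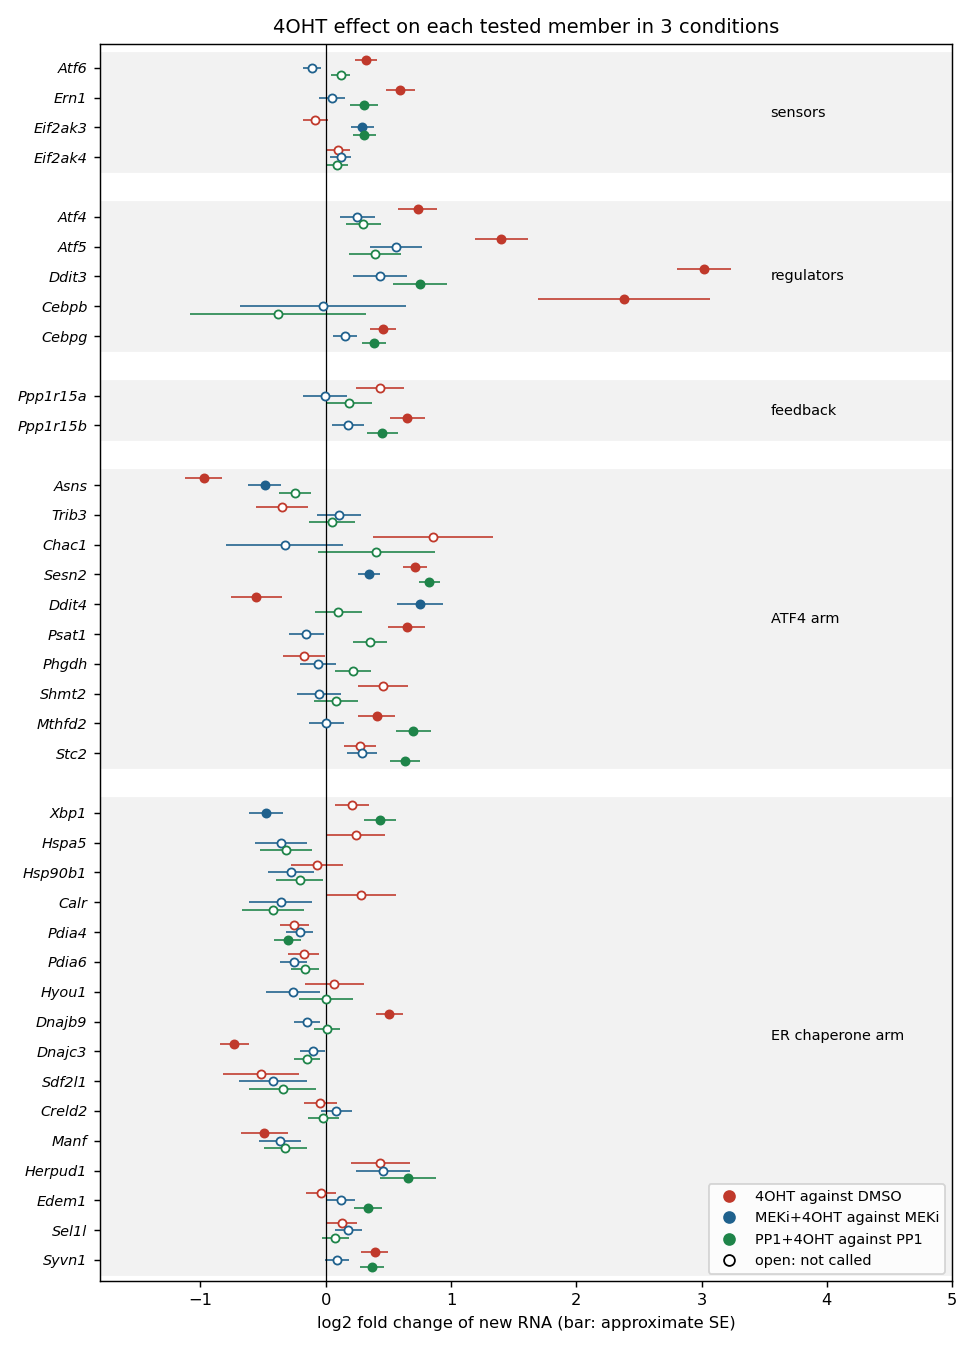
Log2 fold change of new RNA with 4OHT (horizontal axis, points with approximate SE) for the 37 tested members, in DMSO, MEKi and PP1, with filled points for calls at adjusted p under 0.05. Ddit3, Cebpb and Atf5 stand furthest right in DMSO alone, and Asns is below 0 in all 3 conditions.

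Whether an inhibitor changed the response to 4OHT was tested by the interaction, the log2 effect of 4OHT with the inhibitor minus that without. The 3 effects share libraries within these tests. With MEKi, the effect was lower for 9 members and higher for 3 of 37 (19.3% and 21.1% of all genes, 40.4% in all). With PP1 it was lower for 4 and higher for 3 (11.4% and 15.1%, 26.5% in all). Scaled by library totals only, which moves the median gene to 0.48 and 0.45, both balances turned, to 1 lower and 10 higher with MEKi and 1 lower and 9 higher with PP1. For Ddit3 the difference was -2.58 with MEKi and -2.27 with PP1, and for Atf5 -0.84 and -1.01, both on the log2 scale. For Dnajb9 (-0.66 and -0.50) and Dnajc3 (0.62 and 0.58) the difference had the opposite sign to the effect of 4OHT alone under each inhibitor. Of Atf4, whose own effect was called only without inhibitor, neither interaction was called in the edgeR fit to all 17 libraries without the clone. With clone as a replicate block both were, at log2 -0.57 with MEKi and -0.51 with PP1 (adjusted p = 0.000494 and 0.00241 by edgeR). With MEKi so were Ppp1r15b (-0.53) and Asns (0.47). Some alternatives without the clone also called these with MEKi. DESeq2 called Atf4 (-0.52, adjusted p = 0.0339 by DESeq2) and Ppp1r15b (-0.52, adjusted p = 0.0265 by DESeq2). Library totals as the scaling called Asns (0.94, adjusted p = 0.00645 by edgeR).

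The inhibitors were also compared with 4OHT alone, in the same 3 libraries of 4OHT that enter the tests above. Against 4OHT alone, MEKi with 4OHT had 5 members higher and 15 lower (28.4% and 28.4% of all genes, 56.8% in all), and PP1 with 4OHT 6 higher and 8 lower (21.4% and 20.5%, 41.8% in all). Scaled by library totals only, which moves the median gene to 0.40 and 0.23, 9 were higher and 6 lower with MEKi, and 10 higher and 4 lower with PP1. Of the 5 regulators 4 were lower in each, Ddit3 by log2 -2.56 and -2.24, Atf5 by -1 and -0.93, Cebpb by -1.49 and -1.86 and Atf4 by -0.62 and -0.42. Trib3, which did not pass the test with 4OHT, was higher with either inhibitor (log2 0.88 and 0.65): 5.56, 5.34 and 4.92 CPM in 4OHT, 8.26, 11.6 and 9.41 CPM in MEKi with 4OHT, and 7.28, 8.45 and 9.27 CPM in PP1 with 4OHT. Lower with both inhibitors were also Atf6 (-0.47 and -0.30), Ern1 (-0.48 and -0.39), Ppp1r15b (-0.74 and -0.32) and Dnajb9 (-1.06 and -0.90). Higher with both were Eif2ak3 (0.48 and 0.38), Asns (0.33 and 0.83), Ddit4 (0.91 and 0.48) and Dnajc3 (0.63 and 0.52).

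In the comparison with MEKi, Xbp1 (-1.02), Psat1 (-0.79), Hspa5 (-0.61), Mthfd2 (-0.60), Sesn2 (-0.54), Ppp1r15a (-0.41) and Syvn1 (-0.37) were also called lower. In that with PP1, Phgdh was called higher (0.73), at 38.7, 35.7 and 31.2 CPM against 14.7, 25.7 and 24.6 CPM. With the replicate block Ppp1r15a was not called (adjusted p = 0.0514 by edgeR). Many of the smaller calls depended on single libraries. With MEKi, Hspa5 was not called without 4OHT clone b or MEKi with 4OHT clone a or b, Cebpb without 4OHT clone b or c or MEKi with 4OHT clone c, Ppp1r15a without 4OHT clone b or c or MEKi with 4OHT clone a or b, and Asns without 4OHT clone a or b or MEKi with 4OHT clone a or c. With PP1, Cebpb was not called without 4OHT clone b or PP1 with 4OHT clone a, and Atf4 without 4OHT clone c or PP1 with 4OHT clone a or b. Ppp1r15b was not called without 4OHT clone b or c or PP1 with 4OHT clone a or b, and Ddit4 without 4OHT clone a or c or PP1 with 4OHT clone a or b.

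The 2 inhibitors were compared directly, each with 4OHT. PP1 with 4OHT had 8 of 37 members higher than MEKi with 4OHT and none lower, where 15.2% of all genes were higher and 13% lower, 28.2% in all. Xbp1 differed most, 2.19-fold (log2 1.13 ± 0.13, adjusted p = 3.83e-07 by edgeR): its values of 32.9 to 41.9 CPM with PP1 and 17.2 to 18.8 CPM with MEKi did not meet, as for 46.4% of all genes. The others were Mthfd2 (0.64), Psat1 (0.62), Sesn2 (0.54), Asns (0.50), Phgdh (0.44), Ppp1r15b (0.42) and Stc2 (0.38), 6 of them in the ATF4 arm. Ddit4 was lower (log2 -0.44) without passing the test, and it was called lower in 4 alternatives, such as library totals only (-0.56, adjusted p = 0.0331 by edgeR). Cell type markers differed between the same libraries: 7 of 10 embryonic stem cell markers were higher with PP1 and 1 lower (summed level 3770 to 3993 CPM, against 2967 to 3221 CPM with MEKi), and 5 of 6 tested primitive endoderm markers were lower (summed level of all 7, 9.62 to 13.9 CPM against 19.3 to 27.3 CPM), with no marker of either list at 0 in these groups. The summed trophoblast markers were 19.1 to 24.4 CPM with PP1 and 39.9 to 52.9 CPM with MEKi (1 of 5 tested higher, 1 lower), and the neural markers 8.72 to 14.5 CPM and 4.46 to 5.19 CPM (1 of 2 tested higher). Their part in these results was not tested. For 3 members the effect of 4OHT itself was higher with PP1 than with MEKi: Xbp1 (0.91), Mthfd2 (0.69) and Sesn2 (0.48), where 7.41% of all genes were higher and 4.86% lower, 12.3% in all. The calls of Xbp1, Mthfd2, Psat1 and Sesn2 between the inhibitors held under all 17 alternatives. Phgdh was not called when any library other than PP1 with 4OHT clone c was left out, Ppp1r15b without MEKi with 4OHT clone a or b or PP1 with 4OHT clone c, and Stc2 without MEKi with 4OHT clone a. With the replicate block Syvn1 was called too (0.24, adjusted p = 0.0448 by edgeR).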

How the data were processed

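New RNA was measured in 17 libraries of 6 groups. STAR (mm10) and featureCounts were used for alignment and counting, per the submitters' processing notes. Their versions, the annotation and the strand setting were not stated in any source available for this work. The deposited counts are whole numbers per gene symbol, not normalized. Gene positions come from GENCODE M21 (mm10) by symbol and promoters from RefSeq (GRCm38.p6).

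edgeR 4.0.16 (R 4.3.3) was run on all 17 libraries with TMM factors, its filterByExpr filter applied by group, which left 14907 genes, and a robust quasi-likelihood model holding 1 term per group (11 residual degrees of freedom). Calls were made at adjusted p under 0.05 (Benjamini-Hochberg, over all genes kept). Levels are CPM after TMM scaling. The standard error of a log2 fold change is approximate, its size divided by the root of F. Totals of 5239690 to 11093390 counts make 3 counts 0.247 to 0.766 CPM. The script was tested on simulated counts with changes of known size. In 4OHT against DMSO it called 42% of 1.5-fold, 57.6% of 2-fold and 84.7% of 4-fold changes, and 4.84% of calls were false. For the 4OHT effect with PP1 minus with MEKi these shares were 24.2%, 56.1%, 72.3% and 6.54%. The simulated counts differed from the data. For 4OHT against DMSO, only 81, 59 and 59 of 14671 genes held these 3 sizes of change, whereas 52% of all genes were called in the data. No clone effect or shift in composition was simulated. The shares thus need not hold for the data, and a member not called may still have changed.

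All 38 members could be named. Those called are given in each comparison, with up to 4 called genes of smallest adjusted p from each wider list, of which 1 result is not reported here. Members and lists were chosen with earlier results of these data known. The labels give each library's clone, which pairs libraries across groups. The deviations of same-clone libraries from their group means correlated at 0.121 on average over 40 pairs, against -0.0597 over 80 pairs of different clones. Alternatives were DESeq2 size factors, library totals, the 14 high-count loci left out, other filters, clone as a block, only the groups compared, DESeq2 1.42.0, and libraries left out. The version without the 3 libraries of largest high-count share was chosen after seeing the data.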

Additional observations from a re-analysis of the deposited data

Results flagged for a closer look

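The effect of 4OHT differed between conditions for the members below, by the interaction in the edgeR quasi-likelihood fit at an adjusted p under 0.05. Values are log2 differences between 2 effects of 4OHT, which share libraries.

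With MEKi minus without it, the difference was -2.58 for Ddit3, -2.40 for Cebpb, -0.84 for Atf5, -0.55 for Ern1, -0.43 for Atf6 and 0.38 for Eif2ak3. In the ATF4 arm the difference was -0.80 for Psat1, -0.37 for Sesn2 and 1.31 for Ddit4. Ddit4 rose with 4OHT in MEKi. Its fall with 4OHT alone was less sure: the groups overlapped and the call ended in 4 of 16 alternatives. Within clones that effect was 0.05 in clone b and -0.72 in clone c. In the ER chaperone arm it was -0.69 for Xbp1, -0.66 for Dnajb9 and 0.62 for Dnajc3.

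With PP1 minus without it, the difference was -2.76 for Cebpb, -2.27 for Ddit3, -1.01 for Atf5 and -0.50 for Dnajb9, and 0.73 for Asns, 0.58 for Dnajc3 and 0.39 for Eif2ak3. With PP1 minus with MEKi, it was 0.91 for Xbp1, 0.69 for Mthfd2 and 0.48 for Sesn2.

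The call of Ddit3 against both inhibitors, and those of Ddit4 and Dnajc3 with MEKi, held under every alternative. Leaving out single libraries ended no call of Atf6, Ern1, Psat1, Xbp1 or Dnajb9 with MEKi, nor of Xbp1 between the inhibitors. Scaled by library totals only, each of these calls ended. With library totals and the high-count loci left out, those of Atf6, Ern1 and Xbp1 with MEKi ended too. That of Ern1 also ended without the 2 libraries of highest background. With MEKi, the call of Atf5 ended without DMSO clone b, 4OHT clone b or MEKi clone c, and that of Sesn2 without DMSO clone b, MEKi clone a or b, or MEKi with 4OHT clone a. That of Cebpb ended without DMSO clone b, 4OHT clone b or c, MEKi clone a or b, or MEKi with 4OHT clone c. That of Eif2ak3 ended without any of these libraries but 4OHT clone a and MEKi clone a. With PP1, the call of Atf5 and that of Dnajc3 ended without DMSO clone b, that of Dnajb9 without PP1 clone c, and that of Asns without DMSO clone c or 4OHT clone a. That of Cebpb ended without DMSO clone b, 4OHT clone b or c, PP1 clone a or b, or PP1 with 4OHT clone a or b. That of Eif2ak3 ended without either DMSO clone, 4OHT clone b or c, PP1 clone a, or PP1 with 4OHT clone a or b. Between the inhibitors, the call of Sesn2 ended without clone a or c of MEKi with 4OHT or clone a or b of PP1 with 4OHT, and that of Mthfd2 held only without MEKi clone a or c, PP1 clone a, or PP1 with 4OHT clone a.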

How the results depend on the processing

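Of 99 calls of members, tried under 1779 alternatives in all, 1502 kept direction and call, 275 kept direction only and 2 turned. Both turned with library totals as the only scaling, in the 4OHT effect with MEKi minus without: Atf6 to 0.023 and Sesn2 to 0.11. Under every alternative 36 calls held. Library totals also moved the median gene to 0.17 for MEKi with 4OHT against MEKi, 0.12 for PP1 with 4OHT against PP1, -0.13 and -0.21 for MEKi and PP1 against DMSO, and -0.14 for PP1 with 4OHT against MEKi with 4OHT, beside the shifts given above. They moved the share of rises among all calls from 50% to 80% and from 51.1% to 79.8% for MEKi and PP1 against 4OHT, each with 4OHT, from 53.9% to 30.7% between the inhibitors with 4OHT, from 15.2% to 5% and from 33.3% to 57.1% for MEKi and PP1 against DMSO, and from 52.3% to 86.5% and from 57% to 89.3% for the interactions of MEKi and PP1. With the high-count loci left out as well, that between the inhibitors went from 60.4% to 36.6%.

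Library totals gave 3 members (5 with TMM) and 1130 genes (2188) for MEKi with 4OHT against MEKi, 2668 genes (4661) for PP1 with 4OHT against PP1, 5 members (8) and 2153 genes (4199) for PP1 with 4OHT against MEKi with 4OHT, and 0 members (3) and 514 genes (1829) for the 4OHT effect with PP1 minus with MEKi, where leaving the high-count loci out as well gave 1 member. For MEKi against DMSO, PP1 against DMSO and PP1 against MEKi they gave 20, 14 and 3 genes, against 79, 36 and 11. Only the groups compared gave 23, 6 and 3 genes there, and 13 members for PP1 with 4OHT against MEKi with 4OHT, and DESeq2 127, 85 and 20 genes for the former 3. Without the 2 libraries of highest background, 2 members and 1051 genes were called for MEKi with 4OHT against MEKi, and 34 genes for MEKi against DMSO. Without the high-count loci, 23 genes were called for PP1 against DMSO. Without the 3 libraries of largest high-count share, 55 genes were called there, 18 for PP1 against MEKi, and 13 members for PP1 with 4OHT against MEKi with 4OHT. The replicate block by clone gave 120 genes for MEKi against DMSO and changed no call of a member beyond those named above.

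With 1 library left out, members called ranged from 1 to 4 for MEKi with 4OHT against MEKi (1380 to 1980 genes), 6 to 11 for PP1 with 4OHT against PP1, 5 to 7 for PP1 with 4OHT against MEKi with 4OHT, 3 to 8 for the 4OHT effect with PP1 minus without and 1 to 4 for that with PP1 minus with MEKi. Genes called ranged from 19 to 52 for MEKi against DMSO, 3 to 32 for PP1 against DMSO and 6 to 13 for PP1 against MEKi. Where 1 DMSO library remained, it was assumed to vary like the other groups. Depth limits Cebpb, Chac1 and Nupr1.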
